A study of Mus musculus with 106 samples.

Results

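Myc encodes a transcription factor that drives growth and cell division, and it was followed here together with the gene-poor 2 Mb that lie downstream of it. Myc is 1 of 21755 protein-coding genes, at chr15:61985391-61990374 on the plus strand of GRCm38 (mm10), with 6 annotated start sites. The window from 100 kb before to 2 Mb after its first start site held 60 of 77531 H3K27ac regions, 6 of 18152 H3K4me3 regions and 4 of 4820 H3K27ac clusters. A region is the union of overlapping strong peaks that at least 2 libraries hold, and a cluster is at least 3 regions that overlap no protein-coding promoter and lie within 25 kb of each other.

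H3K27ac, acetylation of histone H3 at lysine 27, lies at active promoters and enhancers, and H3K4me3, trimethylation at lysine 4, lies at active promoters. In blood cells Myc is known for regulation over very long distances: a group of enhancers far downstream, past the noncoding gene Pvt1, is known to act on Myc in blood stem and progenitor cells. The histone marks measured here show where acetylation lies, not which gene a region acts on.

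Both marks were profiled by ChIP-seq in C57BL/6J mice aged 12 to 14 weeks, either control or made diabetic with streptozotocin at 42 to 45 mg/kg per day for 5 days, with tissue taken 6 weeks later and diabetes defined as blood glucose above 13.9 mmol/L. Of each mouse group, 3 cell states were taken. "HSC" are bone marrow cells left after magnetic depletion of CD3, CD4, B220, Ter119 and Gr1 positive cells, a mixed population rather than purified stem cells. BMDM are bone marrow-derived macrophages grown for 7 days with L929 cell conditioned medium at 5 mmol/L glucose and then given 100 ng/mL lipopolysaccharide plus 10 ng/mL interferon-γ (LPS+IFN-γ) or medium alone (unstimulated) for 16 hours, so that all BMDM groups, diabetic ones included, were cultured at the same glucose. Each mark had 35 peak lists, 6 per group except 5 for unstimulated BMDM of diabetic mice. The lists held 51162 to 176559 H3K27ac peaks and 13730 to 277213 H3K4me3 peaks. For H3K4me3 the median list held 49624 peaks in control HSC and 161118 in unstimulated control BMDM. In diabetic mice these medians were 89111 and 96580. To make libraries of unequal yield comparable, the 30000 strongest H3K27ac peaks and the 10000 strongest H3K4me3 peaks of each were used. Such a top list is a larger share of a short list than of a long one. A value called percentile rank is the place of the best peak in that top list, near 100 for the strongest and 0 where no top peak lies. Among 8 promoters of stem and progenitor genes, control HSC lists of H3K27ac held 5 to 8 and unstimulated control BMDM lists 1 to 7. For H3K4me3 these counts did not differ, at 4 to 6 in control HSC and 4 to 6 in unstimulated control BMDM lists. Of 8 macrophage promoters, including Csf1r and Cd68, the H3K27ac lists of both BMDM groups of control mice held 3 to 6, and those of HSC 1 to 3, while Itgam was at 0 in every BMDM library. For H3K4me3 they numbered 0 to 1 in control HSC and 0 to 3 in unstimulated control BMDM lists, so that mark did not separate the cells on these genes.

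At BMDM regions that separated stimulated from unstimulated cells in diabetic mice, 4 of 12 control H3K27ac libraries fell against their label, 3 of them widely. The library labelled control LPS+IFN-γ BMDM 5 held 25 of the 125 regions marked after stimulation, and 35 of the 41 marked without it. Those labelled control unstimulated BMDM 5 and 6 held 85 and 83 of the 125, and 5 and 14 of the 41. The fourth, control unstimulated BMDM 1, was in between, with 47 of the 125 and 14 of the 41. For H3K4me3 such regions numbered only 2 and 3. The main control results are also given without the 3 libraries, and the leading ones without all 4.

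The 3 sequences below carry the contrast between the shared start of Pvt1 and the far cluster. Each is the 300 bases around the highest H3K27ac summit of its region, on the plus strand of GRCm38 from the RefSeq genome. The first lies at the Pvt1 start, the second at the region held by most libraries in cluster 2, and the last at region +1718.6 kb of cluster 3, which no BMDM top list held. Capitals mark matches to the motifs searched.

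cluster 1, region +52.1 kb, chr15:62037827-62038126: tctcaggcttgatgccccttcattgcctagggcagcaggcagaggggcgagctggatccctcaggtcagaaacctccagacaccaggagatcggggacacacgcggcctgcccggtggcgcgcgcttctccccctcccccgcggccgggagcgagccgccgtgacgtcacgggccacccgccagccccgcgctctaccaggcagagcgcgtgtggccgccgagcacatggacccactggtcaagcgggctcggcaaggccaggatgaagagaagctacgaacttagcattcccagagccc

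cluster 2, region +232.3 kb, chr15:62219306-62219605: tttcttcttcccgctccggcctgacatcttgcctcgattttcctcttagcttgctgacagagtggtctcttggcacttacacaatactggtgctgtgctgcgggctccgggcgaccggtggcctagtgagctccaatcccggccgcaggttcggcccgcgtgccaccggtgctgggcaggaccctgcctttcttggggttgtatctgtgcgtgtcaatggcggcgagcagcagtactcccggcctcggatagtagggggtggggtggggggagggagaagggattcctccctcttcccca

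cluster 3, region +1718.6 kb, chr15:63704560-63704859: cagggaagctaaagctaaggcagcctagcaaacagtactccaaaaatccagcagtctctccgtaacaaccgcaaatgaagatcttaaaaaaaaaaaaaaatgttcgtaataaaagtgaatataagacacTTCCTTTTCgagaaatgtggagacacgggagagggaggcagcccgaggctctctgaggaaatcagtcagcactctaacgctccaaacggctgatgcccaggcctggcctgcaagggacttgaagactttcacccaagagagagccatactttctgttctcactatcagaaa

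The sequences at the Pvt1 start and in cluster 2 were rich in CpG, with 26 and 18 CpG pairs and a GC content of 68.3% and 62.3%, and held no match. That of cluster 3 had 8 CpG pairs and a GC content of 45.7%, and its capitals match the IRF motif GAAANNGAA on the other strand. On both strands of the 300 bases around each summit, the C/EBP motif TTGCNNAA occurred in 7.19% of all H3K27ac regions and in 9 of the 60 regions at Myc, 4 each in clusters 1 and 3, and GAAANNGAA in 5.11% and in 4 of 60. The RUNX motif TGTGGT occurred in 18.3% of all regions and 6 of 60, the ETS motif GAGGAAG in 12.6% and 7 of 60, the GATA motif AGATAA in 6.41% and 3 of 60, the AP-1 motif TGANTCA in 5.92% and 2 of 60, and the E-box CACGTG, the motif that Myc and its partner Max bind, in 6.26% and 6 of 60. TTGCNNAA and the others are matches of letters, and binding was not measured.

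The window was poor in genes. It held 6 protein-coding genes among 32 annotated genes, with 8 lincRNAs and 10 pseudogenes. Between 100 kb and 2 Mb downstream of Myc lay 5 protein-coding genes, against a median of 23 over the 21518 genes with a whole window, and 6.47% of genes had fewer. That stretch held 50 H3K27ac regions, against a median of 75. The longest distance without any region ran for 431 kb, from +918 to +1349 kb. The protein-coding neighbours are Gsdmc, Gsdmc2, Gsdmc3 and Gsdmc4, which encode gasdermins, pore-forming proteins, and Fam49b, whose product regulates actin remodelling. None of the 35 H3K27ac lists held a top peak at a Gsdmc promoter, and all 35 held one at the Fam49b promoter, which lies just past the window, into which the gene reaches.

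**Figure D1:**
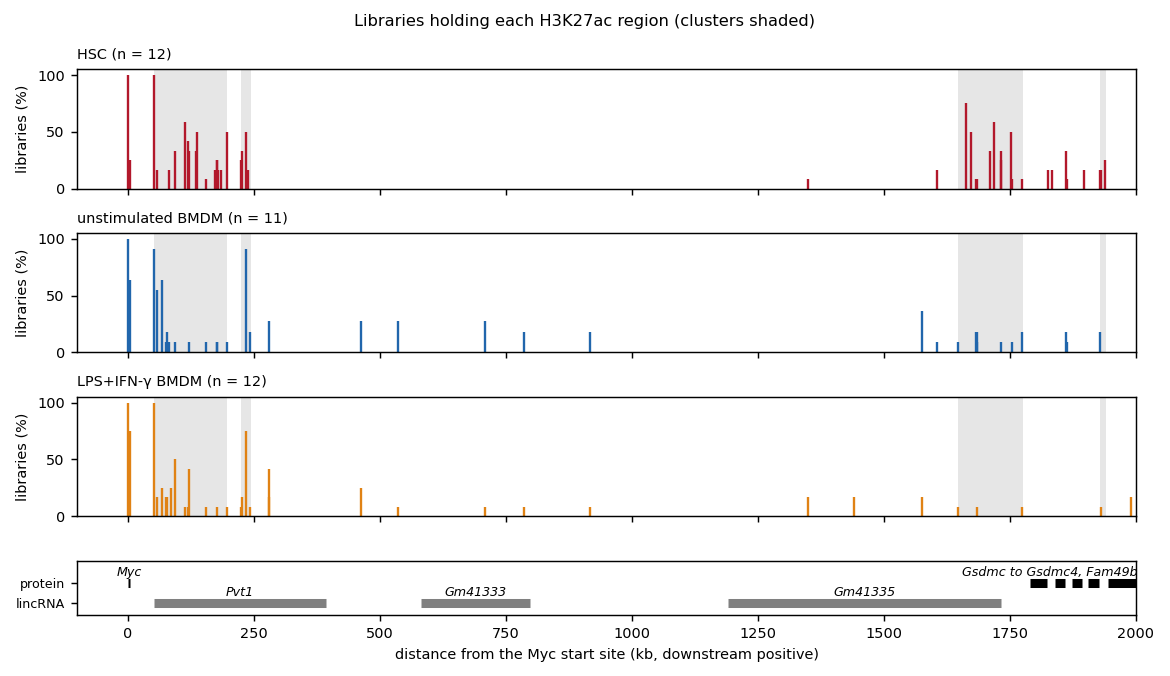
Share of libraries (%, y axis) that held a top H3K27ac peak in each of the 60 regions, by distance from the Myc start site (kb, x axis), for libraries of HSC (12, top row), BMDM without stimulation (11, middle) and BMDM after it (12, bottom), with the 4 clusters shaded and genes drawn below. The Myc promoter stands at the full height in all 3 rows, and the regions of cluster 3 stand mainly in the HSC row.

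The Myc promoter carried H3K27ac in every library. A top peak lay within 1 kb of a Myc start site in 35 of 35 lists, 1043 to 4339 bp wide and 4.39 to 17-fold enriched over input. Its strongest peak ranked between 205 and 10778.5 in its list, and its place among promoters ran from 208 to 9484, with a median of 6838, of 10588 to 13224 promoters held. Myc was acetylated in each cell state, most often in the middle of the order of promoters. Within 100 kb upstream, outside this region, no list of either mark held a top peak.

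The percentile rank of the Myc promoter for H3K27ac ran from 67.8 to 81.3 with a median of 73.9 in control HSC, and from 71.0 to 79.3 with a median of 75.4 in diabetic HSC. In unstimulated BMDM it ran from 70.3 to 85.3 with a median of 81.1 in control mice, and was 87.5, 81.8, 99.3, 83.5 and 79.0 in the 5 libraries of diabetic mice. After LPS+IFN-γ it ran from 64.1 to 83.6 with a median of 73.4 in control and from 71.6 to 84.1 with a median of 75.0 in diabetic mice. The ranges of all 6 groups overlapped, and the single highest value, 99.3, came from unstimulated diabetic BMDM 4.

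In diabetic mice the promoter ranked lower in HSC than in unstimulated BMDM, at 75.0 ± 2.86 (SD, n = 6) against 86.2 ± 7.93 (n = 5), a difference of -11.2 percentile points (exact permutation p = 0.00433, adjusted p = 0.0358 over 13232 promoters). Of all promoters tested, 14.7% were called in that comparison. The call was lost under limma (adjusted p = 0.0551), with every deposited peak (exact permutation, adjusted p = 0.234) and in 10 of the 11 fits that left out a library, all but that without unstimulated diabetic BMDM 6. Without unstimulated diabetic BMDM 4, the highest library, the difference was -7.94 points (exact permutation, adjusted p = 0.0620). In control mice HSC stood at 74.3 ± 4.37 and unstimulated BMDM at 79.7 ± 5.17 (SD, n = 6 each), a difference of -5.43 that did not pass (exact permutation, adjusted p = 0.221), where 10.6% of promoters were called. Without the 3 libraries against their label it was -8.15, and without the 4 it was -8.86 (exact permutation, adjusted p = 0.116 and 0.0944). The difference between the 2 HSC contrasts, -5.79 points, did not pass either (permutation p = 0.248, adjusted p = 0.495 over 6 such tests).

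Neither stimulation nor diabetes gave a call at the Myc promoter. With LPS+IFN-γ the H3K27ac rank differed by -6.33 points in control mice (exact permutation p = 0.0996, adjusted p = 1) and by -9.66 points in diabetic mice (exact permutation p = 0.0325, adjusted p = 0.320). Without the 3 libraries that stood widely against their label, the control difference was -11.1 points (exact permutation p = 0.0159, adjusted p = 0.426). Diabetic minus control differences were 0.739 in HSC, 6.53 in unstimulated BMDM and 3.20 in stimulated BMDM (exact permutation p = 0.736, 0.134 and 0.377, adjusted p = 1 each). By the exact permutation test 0% of promoters were called in any of these 5 comparisons, while 367 to 1706 of 12414 to 13267 had an unadjusted p under 0.05. Since 4.33% of features must reach the smallest possible p, 0.00216, before any can be called, limma was also run, and it called 1 promoter for stimulation in control mice, 59 in diabetic mice and 0 for diabetes in each cell state, Myc never among them.

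H3K4me3 at the Myc promoter was held by 31 of 35 top lists and varied far more within groups. In HSC it ran from 33.1 to 70.2 with a median of 56.9 in control and from 0 to 68.8 with a median of 42.5 in diabetic mice. In unstimulated BMDM it ran from 0 to 76.2 with a median of 20.98 in control mice, and was 82.1, 67.9, 95.1, 0.335 and 45.4 in the 5 libraries of diabetic mice. After LPS+IFN-γ it ran from 5.95 to 59.7 with a median of 52.2 in control and from 0 to 79.7 with a median of 29.9 in diabetic mice. Every group overlapped every other, and the differences of group means ran from -26.4 to 26.1 points without a call in any of the 7 comparisons (exact permutation p from 0.195 to 0.411). Of all promoters 0% were called for H3K4me3, with 334 to 2178 at an unadjusted p under 0.05, and limma called 466 and 27 promoters for HSC against unstimulated BMDM in control and diabetic mice, Myc not among them, and 0 in the others. Every deposited H3K4me3 list had a peak there, at a percentile of 66.3 to 99.5 of the whole list.

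**Figure D2:**
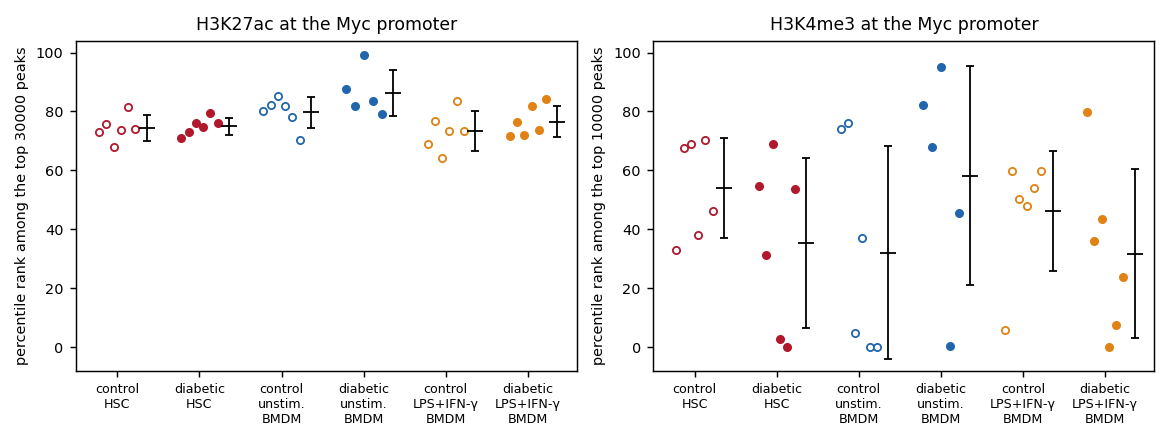
Percentile rank (y axis) of the best peak at the Myc promoter for H3K27ac among the top 30000 peaks (left) and H3K4me3 among the top 10000 (right), by group (x axis). Each point is a library, open for control and filled for diabetic mice, with the mean ± SD beside it. H3K27ac points lie between 64.1 and 99.3, and H3K4me3 points spread from 0 to 95.1.

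The near downstream flank is taken up by Pvt1, a long noncoding gene that starts 52.6 kb from Myc. The H3K27ac region at its start, region +52.1 kb at chr15:62037452-62038819, was held by 34 of 35 libraries, the one exception being in unstimulated BMDM of diabetic mice. Its percentile rank ran from 66.6 to 87.3 in control HSC, from 74.9 to 86.7 in unstimulated control BMDM and from 47.6 to 82.0 in stimulated control BMDM. It outranked the Myc promoter in 16 of 35 H3K27ac lists and in 11 of 35 H3K4me3 lists. The difference between HSC and unstimulated BMDM was -2.06 points in control mice and 19.3 points in diabetic mice (exact permutation, adjusted p = 0.781 and 0.251). The latter rested on the library at 0, unstimulated diabetic BMDM 1, and without it was 4.07 points (exact permutation, adjusted p = 0.577). H3K4me3 at this start was held by 25 of 35 lists, 11 of 12 in HSC, 6 of 11 in unstimulated BMDM and 8 of 12 in stimulated BMDM.

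Between the Myc start and +100 kb the regions were held more often by BMDM. The 9 regions there were held 23 times over 12 HSC libraries, 35 times over 11 unstimulated BMDM libraries and 39 times over 12 stimulated ones, and 4 of them by BMDM alone, as were 30.3% of all H3K27ac regions. Region +3.8 kb, at chr15:61989231-61989970 over the last part of Myc itself, was held by 3 of 12 HSC, 7 of 11 unstimulated and 9 of 12 stimulated BMDM libraries. Region +68.2 kb, in an intron of Pvt1 at chr15:62053593-62054229, was held by no HSC top list, by 3 of 6 unstimulated control BMDM libraries (3 of 4 without BMDM 5 and 6) and by 4 of 5 unstimulated diabetic ones. In the whole deposited lists a peak lay there in 8 of 12 HSC, 10 of 11 unstimulated and 8 of 12 stimulated BMDM libraries.

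From +100 to +300 kb the balance turned. The 19 regions there were held 60 times by HSC, 20 times by unstimulated BMDM and 30 times by stimulated BMDM. Of them 14 were held by more HSC than unstimulated BMDM libraries and 3 by fewer, against 36676 and 30780 of all 77531 regions. Regions +135.2 kb and +136.4 kb were held by 4 and 6 of 12 HSC top lists and by no BMDM top list. The top lists holding +135.2 kb were 4 of control and 0 of diabetic HSC, and those holding +136.4 kb were 1 and 5. That split was one of the top lists: in the whole lists +135.2 kb had a peak in 6 of 6 control and 5 of 6 diabetic HSC libraries and +136.4 kb in 6 of 6 of both. They are neighbours in an intron of Pvt1, at chr15:62120624-62121528 and chr15:62121764-62122990. Between HSC and unstimulated BMDM of control mice +135.2 kb was not called in the top lists (exact permutation, adjusted p = 0.152), and was called with every deposited peak and when ranked by fold enrichment (exact permutation, adjusted p = 0.0374 and 0.0423). It was chosen after its values were seen, and by fold its rank was 0 in every such BMDM library.

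Cluster 1, from +52.1 to +196.8 kb at chr15:62037452-62182149, joined 20 of these regions along the first part of Pvt1. Its covered length was 3.36 to 5.41 kb in control HSC and 1.64 to 5.03 kb in diabetic HSC, against 1.06 to 7.14 kb in unstimulated control BMDM and 1.09 to 2.37 kb in unstimulated diabetic BMDM. The groups overlapped in both contrasts. Means were 4.33 ± 0.779 against 3.13 ± 2.49 kb in control mice (SD, n = 6 each, exact permutation, adjusted p = 0.434) and 3.69 ± 1.27 (n = 6) against 1.76 ± 0.605 kb (n = 5) in diabetic mice (exact permutation p = 0.0195, adjusted p = 0.0591). The latter passed limma (adjusted p = 0.0332), and the former was 0.495 kb without the 3 libraries against their label (exact permutation, adjusted p = 0.792).

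Cluster 2, from +224.4 to +243.5 kb at chr15:62209810-62228868, held 5 regions within Pvt1. Its main region, +232.3 kb, overlaps an exon of Pvt1 and the processed pseudogene H2afy3, and H3K4me3 lay there in 4 of 35 libraries. The region was held by 10 of 11 unstimulated BMDM, 9 of 12 stimulated BMDM and 6 of 12 HSC libraries. In control mice its mean percentile rank was 4.26 in HSC and 38.3 in unstimulated BMDM, a difference of -34.0 points (exact permutation p = 0.0281, adjusted p = 0.110) that passed limma (adjusted p = 0.0398), and -31.2 points without the 3 libraries (exact permutation, adjusted p = 0.185). In diabetic mice it was 18.3 and 38.9 (exact permutation, adjusted p = 0.305). The cluster's covered length differed between HSC and unstimulated BMDM by -0.062 kb in control and -0.125 kb in diabetic mice, with no call (exact permutation, adjusted p = 0.919 and 0.681).

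The desert proper, from +300 to +1600 kb, held 8 regions, which HSC libraries held 1 time in all, unstimulated BMDM 17 times and stimulated BMDM 13 times. Region +462.7 kb, at chr15:62448090-62448581, and region +1575.4 kb, at chr15:63560782-63561425, were held by 6 BMDM top lists each and no HSC top list, and in the whole lists by 3 and 1 of 12 HSC libraries. Of 3 H3K4me3 regions there, those at +536.1 and +784.5 kb were held by 3 and 4 HSC top lists and by no BMDM top list, and that at +707.4 kb by 1 HSC and 1 unstimulated BMDM top list, none with an annotated start site within 1 kb. Peaks at these H3K4me3 regions were not counted in the whole lists. In control mice the H3K4me3 lists of HSC were shorter at the median than those of unstimulated BMDM. The part of list length in these counts was not tested. H3K27ac regions at +536.1 and +784.5 kb were held by 4 and 3 BMDM top lists and by no HSC top list. None of the H3K27ac regions here was called, and the H3K4me3 regions were not tested.

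Beyond +1600 kb HSC held regions more often. The 23 regions from there to +2000 kb were held 63 times over 12 HSC libraries. BMDM held them 16 times over 11 unstimulated and 6 times over 12 stimulated libraries. HSC alone held 10 of them (43.5%), against 12.8% of all 77531 regions. The edge at +1600 kb falls just past region +1575.4 kb, which 6 BMDM top lists and no HSC top list held. The next region, +1604.4 kb, was held by 2 HSC top lists and 1 BMDM top list. The share of 43.5% therefore depends on where that edge was drawn, and its difference from 12.8% was not tested. Of those 23 regions, 13 formed cluster 3, from +1646.1 to +1775.3 kb at chr15:63631490-63760689, a stretch with lincRNAs and pseudogenes only, where 6 of the 13 were held by HSC alone and 5 by fewer HSC than unstimulated BMDM libraries. The group lies in the part of the chromosome where the far-downstream blood enhancers of Myc are known, and its boundaries were drawn here from peaks alone.

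Over the whole stretch from 100 kb to 2 Mb, distal H3K27ac covered 5.76 to 10.4 kb in control HSC, with a median of 7.30 kb, and 1.29 to 5.02 kb in unstimulated control BMDM, with a median of 3.68 kb. The 2 groups did not overlap. Means were 7.55 ± 1.55 and 3.41 ± 1.51 kb (SD, n = 6 each), so HSC exceeded BMDM by 4.14 kb (exact permutation p = 0.00216, the smallest possible, adjusted p = 0.0190 over 20829 genes). Of all genes, 21.9% were called in this comparison, 1943 with more and 2618 with less in HSC, and neighbouring genes share most of such a stretch. All top peaks together covered 26.7 to 30.5 Mb in control HSC lists and 21.4 to 36.8 Mb in control unstimulated BMDM lists, and the part of the total in the difference was not tested. The difference was 3.74 kb without the 3 libraries against their label (exact permutation, adjusted p = 0.0327), 2.91 kb without the 4 (exact permutation, adjusted p = 0.0670), and 3.57 to 4.50 kb when each library was left out. With every deposited peak it was 11.4 kb and was not called (exact permutation, adjusted p = 0.331).

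In diabetic mice the same stretch was covered over 2.32 to 8.76 kb in HSC, with a median of 7.91 kb, and over 1.34, 2.07, 1.72, 1.89 and 4.34 kb in the 5 unstimulated BMDM libraries. Diabetic HSC 5 and 6, at 4.003 and 2.32 kb, fell within the BMDM range, and the other 4 lay above it. The means, 6.51 ± 2.67 (n = 6) and 2.27 ± 1.19 kb (n = 5), differed by 4.24 kb, which did not pass (exact permutation p = 0.0195, adjusted p = 0.0662, 23.2% of genes called) and passed limma (adjusted p = 0.0363). The contrast in diabetic mice exceeded that in control mice by 0.102 kb (permutation p = 0.949). Means were also taken over all HSC and over all BMDM libraries, control and diabetic, stimulated BMDM included. Set beside the median gene, HSC libraries so pooled covered 7.03 kb downstream of Myc against 8.18 kb, and BMDM libraries 3.01 kb against 9.37 kb.

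**Figure D3:**
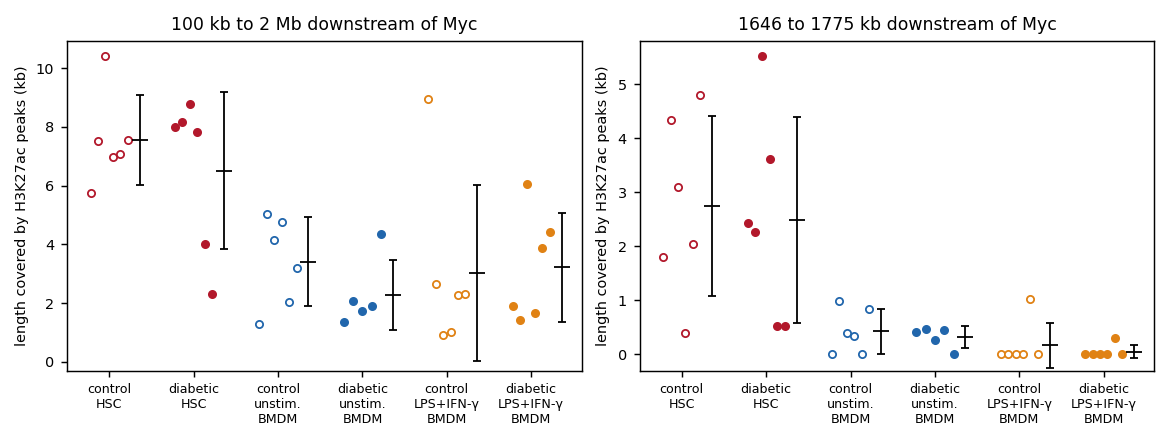
Length covered by distal H3K27ac peaks (kb, y axis) from 100 kb to 2 Mb downstream of Myc (left) and in cluster 3 (right), by group (x axis), with each library as a point, open for control and filled for diabetic mice, and the mean ± SD beside it. Control HSC lie between 5.76 and 10.4 kb on the left, above the 1.29 to 5.02 kb of control unstimulated BMDM.

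Cluster 3 made up a varying part of the length from 100 kb to 2 Mb. In control HSC this ran from 0.397 of 6.97 kb in library 4 to 4.80 of 7.56 kb in library 6. The cluster's own values follow. Cluster 3 was covered over 0.397 to 4.80 kb in control HSC, with a median of 2.57 kb, and over 0 to 0.982 kb in unstimulated control BMDM, with a median of 0.367 kb. Of the 6 control HSC libraries, 5 lay above every BMDM library. Like every cluster it was drawn from these same top peaks, and 6 of its 13 regions entered through HSC alone. Its test is therefore not independent of how it was drawn, in either mouse group. Means were 2.75 ± 1.66 and 0.426 ± 0.413 kb (SD, n = 6 each), a difference of 2.32 kb (exact permutation p = 0.00649, adjusted p = 0.0318), where 23.4% of 4412 clusters were called. Without the 2 unstimulated libraries widely against their label it was again 2.32 kb but not called (exact permutation, adjusted p = 0.0913), without unstimulated BMDM 1 as well it was 2.17 kb (exact permutation, adjusted p = 0.165), and leaving out single libraries gave 1.91 to 2.79 kb with the call lost in 4 of 12, those without unstimulated control BMDM 1, 3, 4 or 5 (exact permutation, adjusted p from 0.0557 to 0.0615). With every deposited peak the difference was 5.97 kb (exact permutation, adjusted p = 0.0252).

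In diabetic mice cluster 3 was covered over 0.519 to 5.52 kb in HSC, with a median of 2.35 kb, and over 0.410, 0.471, 0.272, 0.456 and 0 kb in the 5 unstimulated BMDM libraries. The groups did not overlap, in a cluster where 6 of the 13 regions had entered through HSC alone. The means of 2.48 ± 1.91 (n = 6) and 0.322 ± 0.196 kb (n = 5) differed by 2.16 kb (exact permutation p = 0.0173, adjusted p = 0.0542, 30.7% of 4265 clusters called). Leaving out single libraries gave 1.55 to 2.55 kb, and the difference was called in 6 of 11 such fits, those that left out any one HSC library. Those fits compared 5 with 5 libraries and all gave exact permutation p = 0.00794, the smallest that this group size allows. They therefore add no support to the result of all libraries. In the top lists stimulated BMDM had the least, with 5 of 6 libraries at 0 kb in each mouse group and means of 0.170 kb in control and 0.05 kb in diabetic mice. With every deposited peak the stimulated and unstimulated means were 3.04 and 2.84 kb in control and 1.21 and 2.50 kb in diabetic mice.

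**Figure D4:**
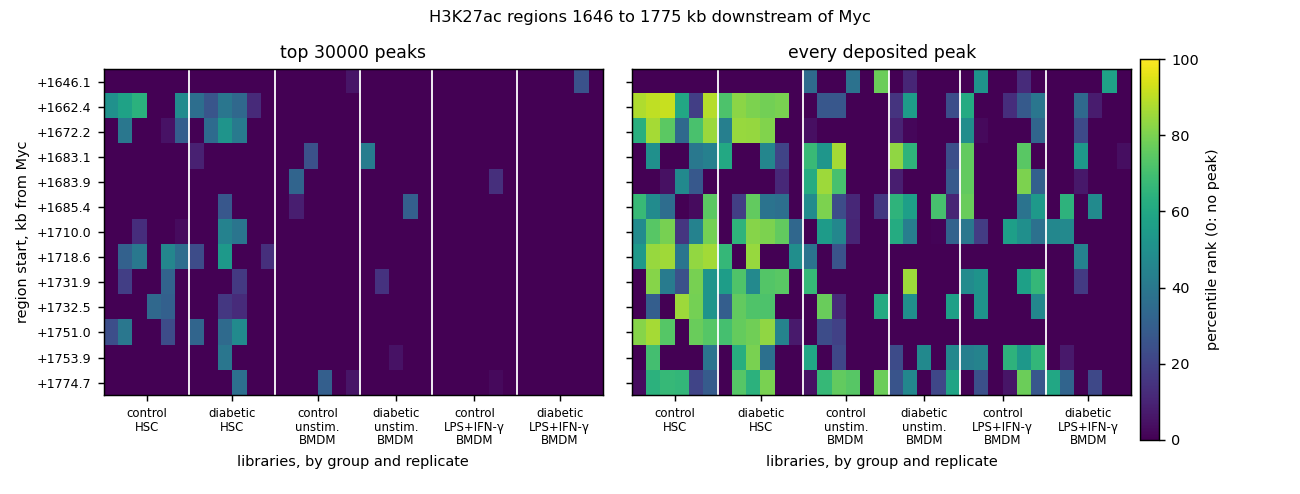
Percentile rank (colour, 0 where no peak lies) of the 13 cluster 3 regions (y axis, start in kb from Myc) in the 35 H3K27ac libraries (x axis, by group), for the top 30000 peaks (left) and every deposited peak (right). On the left regions +1662.4, +1672.2, +1710.0, +1718.6 and +1751.0 are filled in HSC alone, and on the right weaker BMDM peaks appear in several of them.

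The 2 leading regions of cluster 3 were absent from every BMDM top list. Region +1662.4 kb, in an intron of the lincRNA Gm41335, had percentile ranks of 0 to 63.7 in control HSC with a median of 49.3, and of 0 to 39.4 in diabetic HSC with a median of 30.1. It was held by 4 of 6 control and 5 of 6 diabetic HSC libraries and by 0 of 23 BMDM libraries. The differences of 36.6 points in control and 24.6 points in diabetic mice did not pass (exact permutation p = 0.0606 and 0.0281, adjusted p = 0.152 and 0.0928), and the region entered the test through HSC alone. In the whole deposited lists a peak lay there in 11 of 12 HSC, 5 of 11 unstimulated and 6 of 12 stimulated BMDM libraries, so the absence from BMDM was one from the top lists.

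Region +1718.6 kb, at chr15:63703999-63704914, again in Gm41335, was held by 4 of 6 control and 3 of 6 diabetic HSC libraries and by no BMDM top list. Its mean rank in control HSC was 25.4, and it too entered the test through HSC alone (exact permutation, adjusted p = 0.152). With every deposited peak, where its means were 72.1 and 10.6, the difference was called (exact permutation, adjusted p = 0.0374), though the region was chosen after its values were seen. Regions +1672.2 and +1751.0 kb were held by 6 of 12 HSC top lists each, and +1710.0 kb by 4, none by a BMDM top list. In the whole lists +1710.0 kb had a peak in 7 of 11 unstimulated and 7 of 12 stimulated BMDM libraries. There +1672.2 kb had one in 3 and 4, and +1751.0 kb in 2 and 0. Of 28001 regions tested 11.3% were called in control mice and of 26131 in diabetic mice 15.2%, and the region at the Myc promoter, in diabetic mice, was the only one of the 60 (exact permutation, adjusted p = 0.0333). That call was lost with every deposited peak, by fold enrichment, with no filter on low values and in 10 of 11 fits that left out a library.

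Cluster 4, from +1928.8 to +1939.8 kb at chr15:63914213-63925212 over the pseudogene Gsdmcl-ps, had 3 regions and was held by 2 control and 3 diabetic HSC libraries and by 4 of 23 BMDM libraries. Its means were 0.347 and 0.0738 kb in HSC and unstimulated BMDM of control mice, with too few libraries above 0 to test, and 0.285 and 0.0598 kb in diabetic mice (exact permutation, adjusted p = 0.472).

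For H3K27ac, the mark meant here unless another is named, markers of other cells moved with the same contrast. Of 4 erythroid promoters, 2 to 4 were held in HSC libraries of both mouse groups and 1 to 2 in BMDM libraries, at a mean percentile rank of 34.9 to 71.1 against 16.3 to 36.8. Epor, for the erythropoietin receptor, was called higher in HSC of both mouse groups, and Hbb-bt and Alas2 were at 0 in unstimulated BMDM. For H3K4me3 the erythroid promoters went the other way, with 0 to 2 held in HSC and 1 to 2 in BMDM libraries. The 2 tested had median HSC minus unstimulated BMDM differences of -32.9 points in control and -21.8 in diabetic mice, with 0 called. Of 5 neutrophil promoters 1 to 3 were held in HSC and 0 to 1 in BMDM, at a mean rank of 3.47 to 24.1 against 0 to 8.10. Of 4 fibroblast promoters 1 to 4 were held in HSC and 0 to 3 in BMDM, at a mean rank of 12.0 to 40.1 against 0 to 17.4. Of the 2 tested in control and 3 in diabetic mice, only Thy1 was called, higher in HSC of both mouse groups. A call at this 1 gene does not show that fibroblasts were present. Over all promoters 10.6% in control and 14.7% in diabetic mice were called, 875 and 1285 of them higher in HSC. Of 5 T and B cell promoters 0 to 2 were held in HSC and 0 to 1 in BMDM. Their part in the differences at Myc was not tested, and in these bulk libraries more cells with an acetylated region and more acetylation per cell cannot be told apart.

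Stimulation and diabetes gave no call downstream of Myc. The covered length from 100 kb to 2 Mb was 0.922 to 8.95 kb with a median of 2.29 kb in stimulated control BMDM and 1.42 to 6.06 kb with a median of 2.89 kb in stimulated diabetic BMDM, both overlapping the unstimulated libraries. The differences with LPS+IFN-γ were -0.389 kb in control and 0.954 kb in diabetic mice (exact permutation, adjusted p = 1 and 0.720), the former -0.631 kb without the 3 libraries against their label and -1.47 kb without the 4 (exact permutation, adjusted p = 1 each). The length of cluster 3 differed with LPS+IFN-γ by -0.272 kb in diabetic mice (exact permutation p = 0.0411, adjusted p = 0.243) and by -0.2565 kb in control mice (exact permutation, adjusted p = 1). Diabetic minus control differences of the covered length were -1.04 kb in HSC, -1.14 kb in unstimulated and 0.1997 kb in stimulated BMDM (exact permutation, adjusted p = 0.695, 0.864 and 1). Of all genes, clusters and regions 0% were called in these comparisons by the exact permutation test. At an unadjusted p under 0.05 stood 144 to 2913 genes, 52 to 786 clusters and 672 to 4103 regions. For stimulation limma called 0 genes in either mouse group, 9 clusters and 589 regions (2.22%) in diabetic mice and 1 region in control mice, and for diabetes 0 of each, with no feature at Myc among them.

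The genes around Myc function were described by the same measure. Of 12 members of the Myc network, which bind or compete for Max or its relative Mlx, all were tested for H3K27ac, and 1 was called in control and 2 in diabetic mice, where 10.6% and 14.7% of all promoters were. Mxd3, which encodes a Max partner that opposes Myc, ranked higher in HSC in both mouse groups, at 76.6 against 47.7 in control mice (exact permutation, adjusted p = 0.0290) and 79.2 against 30.5 in diabetic mice (exact permutation, adjusted p = 0.0253). Mxd1, another such partner, ranked higher in HSC of diabetic mice by 11.2 points (exact permutation, adjusted p = 0.0253), and in control mice it differed by 2.04 points (exact permutation, adjusted p = 0.722). The other members were not called, and the median differences over the 12 were 3.50 in control and 3.37 in diabetic mice, against 2.57 and 2.39 over all promoters.

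Of 14 known targets of Myc, all tested, Nolc1, which serves the nucleolus, ranked higher in HSC in both mouse groups, at 73.9 against 45.1 in control (exact permutation, adjusted p = 0.0409) and 75.6 against 26.1 in diabetic mice (exact permutation, adjusted p = 0.0253). Apex1, a DNA repair enzyme, ranked higher in HSC of diabetic mice by 8.74 points (exact permutation, adjusted p = 0.0253). No target ranked lower by call, and the 1 and 2 calls among 14 stand beside the same 10.6% and 14.7%. The median differences over the 14 were 2.87 and 3.35 points. For stimulation and diabetes, and for H3K4me3 in each comparison, 0 members of either list were called, as was the case for all promoters.

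The 5 promoters whose H3K27ac ranks followed those of Myc most closely over the 35 libraries, of 11991 compared, were Slc22a21 (Pearson r = 0.698), S1pr1 (r = 0.697), 4921504E06Rik (r = 0.684), Jag2 (r = 0.673) and Dync1i1 (r = 0.662). S1pr1 encodes a receptor for sphingosine 1-phosphate, Jag2 a Notch ligand, Slc22a21 a carnitine transporter and Dync1i1 a dynein subunit. These are descriptions over libraries of mixed groups that share cell state, and the genes lie on chromosomes 11, 3, 2, 12 and 6.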

How the data were processed

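H3K27ac (ab4729) and H3K4me3 (ab8580) ChIP-seq peak lists were analysed, 35 of each, and the 36 input samples of the series had no list to analyse here. The submitters' processing notes name Trim Galore 0.3.3, cutadapt 1.8, FastQC 0.11.3, Bowtie2 2.2.6, Picard 2.18.14 and 2.19.2, bedtools 2.19.1, MACS2 2.2.7.1 and the builds GRCm38 and mm10. Each deposited list holds, per peak called by the authors in 1 library, a score, the fold enrichment over input, the −log10 p-value, the −log10 q-value and the summit offset. The deposited −log10 q-values start at 1.30, and read depth is not known from the lists, so no counting interval can be given.

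Peaks sharing coordinates were joined, ranked by −log10 p and cut to the strongest 30000 (H3K27ac) or 10000 (H3K4me3), since list length differed and follows yield. A promoter was 1 kb either side of any GENCODE M21 start site. Distal length is the kb covered by top peaks outside protein-coding promoters. Features with a value above 0 in under 4 libraries of a comparison were not tested. The two-sided exact permutation test enumerated 924 (6 against 6) or 462 (5 against 6) arrangements, with Benjamini-Hochberg adjustment over all features of the comparison and calls at adjusted p under 0.05. limma was the alternative, and both were tested on simulated data. Contrasts between contrasts used 100000 permutations. Others tried were shorter and whole lists, ranking by fold, promoter width, region filters, a replicate block and leaving out libraries.

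Named items were Myc, genes of the window, 5 genes most like it, the lists, and in each cluster the region held by most libraries and regions called. Regions +3.8, +68.2, +135.2, +136.4, +462.7, +536.1, +784.5, +1575.4, +1672.2, +1710.0, +1718.6 and +1751.0 kb and the H3K4me3 regions were chosen after their values were seen. No rule is given here for the edges at +300 and +1600 kb that divide the downstream stretch. The members and lists were chosen with earlier results of these data known. The paper states that its n counts individual animals, while the labels name no animal for any library. The p-values measure the spread between these libraries. No 2 libraries were duplicates. The sequence of the Myc promoter was not used here, and 1 erythroid marker and 1 further sequence are not reported here. Python 3.11.15 (NumPy 2.4.6, SciPy 1.17.1, pandas 2.3.3), R 4.3.3 and limma 3.58.1 were used.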

Additional observations from a re-analysis of the deposited data

Results flagged for a closer look

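In each of 42 groups of 5 or 6 libraries the highest and lowest library were compared with the rest by Dixon's gap, which chance passes in about 1 of 20 groups where values vary freely. That rate does not apply to the 6 groups of clusters 3 and 4 below, where all other libraries are at 0 and any value above 0 passes by construction. A pair of libraries stood apart on the length from 100 kb to 2 Mb: control LPS+IFN-γ BMDM 1 had 8.95 kb, against 0.922 to 2.66 kb in the others of its group, and diabetic unstimulated BMDM 6 had 4.34 kb, against 1.34 to 2.07 kb. The first of them also had 9.49 kb in cluster 1, against 0.681 to 2.37 kb, and for H3K4me3 a promoter rank of 5.95, against 47.8 to 59.7.

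Diabetic LPS+IFN-γ BMDM 3 had 5.90 kb in cluster 1, against 1.10 to 2.28 kb. Control unstimulated BMDM 1 had 0 kb in cluster 2, against 0.809 to 1.10 kb. In cluster 3 control LPS+IFN-γ BMDM 5, one of the libraries that stood against their label, had 1.02 kb and diabetic LPS+IFN-γ BMDM 5 had 0.300 kb, with the others of each group at 0. In cluster 4 control unstimulated BMDM 4 had 0.443 kb, diabetic unstimulated BMDM 4 had 0.299 kb, control LPS+IFN-γ BMDM 3 had 0.335 kb and diabetic LPS+IFN-γ BMDM 1 had 0.381 kb, again with the others of each group at 0.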

How the results depend on the processing

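The longer coverage from 100 kb to 2 Mb in control HSC kept its direction and its call under the alternatives except every deposited peak (11.4 kb) and leaving out 4 control BMDM libraries against their label, an alternative chosen after seeing the data (2.91 kb, 6 against 3 libraries). In diabetic mice that difference was called under limma (4.24 kb) and without unstimulated diabetic BMDM 6, with 3.79 to 5.08 kb over libraries left out. Cluster 3 in control mice lost its call without the 3 or 4 libraries against their label (2.32 and 2.17 kb) and gave 1.91 to 2.79 kb over libraries left out, and 1.55 to 2.55 kb in diabetic mice. With only regions in at least 5 libraries, clusters 2, 3 and 4 did not form. Cluster 3 has therefore no value under that alternative. The H3K27ac promoter difference in diabetic mice was not called with every peak (-5.05), ranking by fold enrichment (-12.3) and limma (-11.2), and ran from -13.0 to -7.94 with libraries left out. Regions called in control mice numbered 4 with every peak, 1 by fold enrichment, 3 by limma, 2 of these at 0 in every BMDM library, and 0 to 1 with libraries left out, and in diabetic mice 0 with every peak, by fold enrichment and with no filter on low values, 2 by limma, both at 0 throughout 1 of the groups compared, and 0 to 2 with libraries left out. The cause was not tested for any of these changes.

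In no comparison did the deviations of same-numbered libraries correlate above 0.1 in every pair, the limit used here, which does not exclude pairing. The correlations ran from 0.00294 to 0.443 (H3K27ac) and 0.0150 to 0.276 (H3K4me3) for stimulation in diabetic mice. Between HSC and unstimulated BMDM of control mice they ran from -0.343 to 0.289 (H3K27ac). The labels do not say what the numbers mean, so a replicate block was run only as an alternative. With the block the promoter difference in diabetic mice was -11.4 and not called, cluster 1 in diabetic mice was 2.34 kb and called, cluster 2 was 0.0036 kb, and 0 regions were called in diabetic mice. No unstimulated diabetic BMDM library has the number 3, so with the block diabetic HSC 3 did not enter these differences. They equal the differences with diabetic HSC 3 left out. Diabetic LPS+IFN-γ BMDM 3 likewise had no partner. For stimulation in diabetic mice the block gave calls for 419 genes, 158 clusters and 149 regions, none at Myc, where limma without it gave 0, 9 and 589.

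Other differences that were not called changed sign. Cluster 1 between HSC and BMDM in control mice gave -0.187 kb with shorter lists and -0.054 kb with regions in at least 5 libraries, and in diabetic mice passed by fold enrichment (2.86 kb) and limma (1.93 kb), with 1.66 to 2.34 kb over libraries left out and a call without diabetic HSC 3. With LPS+IFN-γ in control mice it gave 0.0258, 0.879 and 0.116 kb with shorter lists, every peak and the stricter regions, and 0.571 kb without the 4 libraries, and for diabetes in HSC 0.0855 and 0.296 kb with the first and last of these. With every peak cluster 2 gave 0.822 kb between HSC and BMDM in control mice, -0.0257 kb for stimulation in diabetic mice and 0.195 kb for diabetes in unstimulated BMDM. Without the 3 libraries against their label the first and last were 0.0259 and 0.0654 kb, and by fold enrichment diabetes in stimulated BMDM gave 0.0827 kb. With every peak cluster 3 gave 0.203 kb for stimulation in control mice, region +52.1 kb gave 0.326 points in control mice, and the length from 100 kb to 2 Mb gave 2.72 and -1.13 kb for stimulation in control and diabetic mice and -10.0 kb for diabetes in stimulated BMDM.

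At the promoter H3K27ac gave, with every peak, 0.0162 points between HSC and BMDM in control mice, -2.88 for diabetes in HSC and -1.07 in stimulated BMDM, and -2.51 in HSC by fold enrichment. H3K4me3 gave -3.58 for HSC against BMDM in control mice and -0.659 for diabetes in unstimulated BMDM with every peak, -8.91 for stimulation in control mice and 2.00 for diabetes in stimulated BMDM with shorter lists, and -3.39 for the former without the 3 libraries against their label.

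Leaving out libraries gave, for cluster 1, -1.43 to 0.669 kb with stimulation in control mice and -1.20 to 0.783 kb with diabetes in stimulated BMDM. For cluster 2 it gave -0.353 to 0.0834 kb and -0.213 to 0.0036 kb between HSC and BMDM in control and diabetic mice, -0.0228 to 0.303 kb with stimulation in diabetic mice, and -0.231 to 0.205 kb and -0.180 to 0.0506 kb with diabetes in HSC and unstimulated BMDM. With diabetes cluster 3 gave -0.873 to 0.144 kb in HSC and -0.190 to 0.0068 kb in unstimulated BMDM, cluster 4 gave -0.196 to 0.147 kb in HSC, and the H3K27ac promoter gave -0.554 to 2.15 points in HSC. The whole length gave -1.57 to 0.0310 kb with stimulation in control mice and -0.368 to 1.38 kb with diabetes in stimulated BMDM, and region +52.1 kb gave -3.92 to 0.221 points. Over 56 results and 12 settings, libraries left out not counted, 352 values kept their direction and their side of the threshold.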
